A study of Xenopus laevis with 8 samples.

Results

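The endothelial genes described here are kdr, flt1, flt4, tek, tie1, cdh5, egfl7, esam, cldn5 and slc2a1, which mark the blood vessels of the brain or its barrier. They were chosen by symbol, so that a row of the count table belongs to a gene if its symbol equals one of these 10 after the homeologue ending L or S is removed. Xenopus laevis is allotetraploid, and each of the 10 genes had an L and an S row, which gave 20 rows of the 41881 in the table. All 20 had enough reads to be tested, with between 30 and 3517 reads per row and pool. The samples were whole brains of stage NF 47 tadpoles in 4 pools of F0 neurod2 CRISPants and 4 pools of control siblings, with 4 brains in each pool. CRISPants came from eggs injected at the one cell stage with Streptococcus pyogenes Cas9 carrying a guide RNA that causes frame shifts in both neurod2 homeologues. Controls are labelled wild type and were injected with Cas9 alone, so both groups carried Cas9. CRISPants are mosaics of edited and unedited cells, all animals were from 1 sibship, and injection of eggs does not target any 1 cell type.

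Endothelial cells line blood vessels and read vascular endothelial growth factors through the receptor tyrosine kinases encoded by kdr, flt1 and flt4. A separate pair of receptor kinases, encoded by tek and tie1, responds to angiopoietins and sets how stable a vessel is. The junction proteins encoded by cdh5, esam and cldn5 seal neighbouring endothelial cells to each other. In the brain this seal is tight and forms the blood brain barrier, across which slc2a1 carries glucose. The study gives a leaky blood brain barrier, known from earlier work on these mosaics, as part of its background. The comparison here asks whether the transcripts of the vessel lining differed between CRISPant and control brains.

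Total counts per pool ranged from 18945762 to 25509904 in CRISPant brains and from 20985937 to 25937707 in control brains. Of the 41881 genes, 25171 were tested with edgeR's quasi-likelihood test after TMM normalisation, and values are given as normalised CPM (read counts scaled to library size). A gene is called higher or lower at a Benjamini-Hochberg adjusted p under 0.05 over all genes tested. The targeted gene was checked first. neurod2.L was at 28.5, 31.1, 26.2 and 18.98 CPM in CRISPant pools 3, 4, 7 and 9, against 36.9, 37.1, 38.6 and 32.9 CPM in control pools 1, 2, 4 and 5. neurod2.S was at 39.0, 45.7, 35.1 and 26.7 CPM in the CRISPant pools, against 52.2, 48.2, 45.4 and 40.3 CPM in the control pools. neurod2.L fell by 0.47 on the log2 scale (edgeR adjusted p = 0.0075), and neurod2.S had -0.34 (edgeR adjusted p = 0.11). neurod2.S passed without CRISPant pool 4 (-0.47, edgeR adjusted p = 0.011) and with edgeR's robust option off (adjusted p = 0.025), and with each pool left out its value ran from -0.47 to -0.22.

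Among the 20 endothelial rows, 4 were lower in CRISPant brains, 0 were higher and 16 did not pass the test. The rows that fell were both homeologues of tie1, cldn5.L and flt4.S. Over all genes tested 42.4% were called, 20.8% lower and 21.7% higher, against 4 of 20 endothelial rows called lower. The share of rows called lower was near that of all genes, and the share called in either direction was below it. The median log2 fold change of the endothelial rows was -0.05, against -0.0022 over all genes tested. At an unadjusted p under 0.05, 6 of the 20 rows passed in edgeR, with tek.L as the only one of them that was higher. Of all 25171 genes tested, at least 12464 passed at that threshold, so the endothelial rows passed less often than genes in general. DESeq2 called 0 endothelial rows higher and 4 lower, against 5246 higher and 4923 lower of the 27996 genes it tested. All 16 rows that did not pass had a 95% interval inside a 1.5-fold change in either direction, with bounds between -0.46 and 0.58 on the log2 scale. In whole brains, fewer endothelial cells and less of a transcript per cell cannot be told apart.

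**Figure D1:**
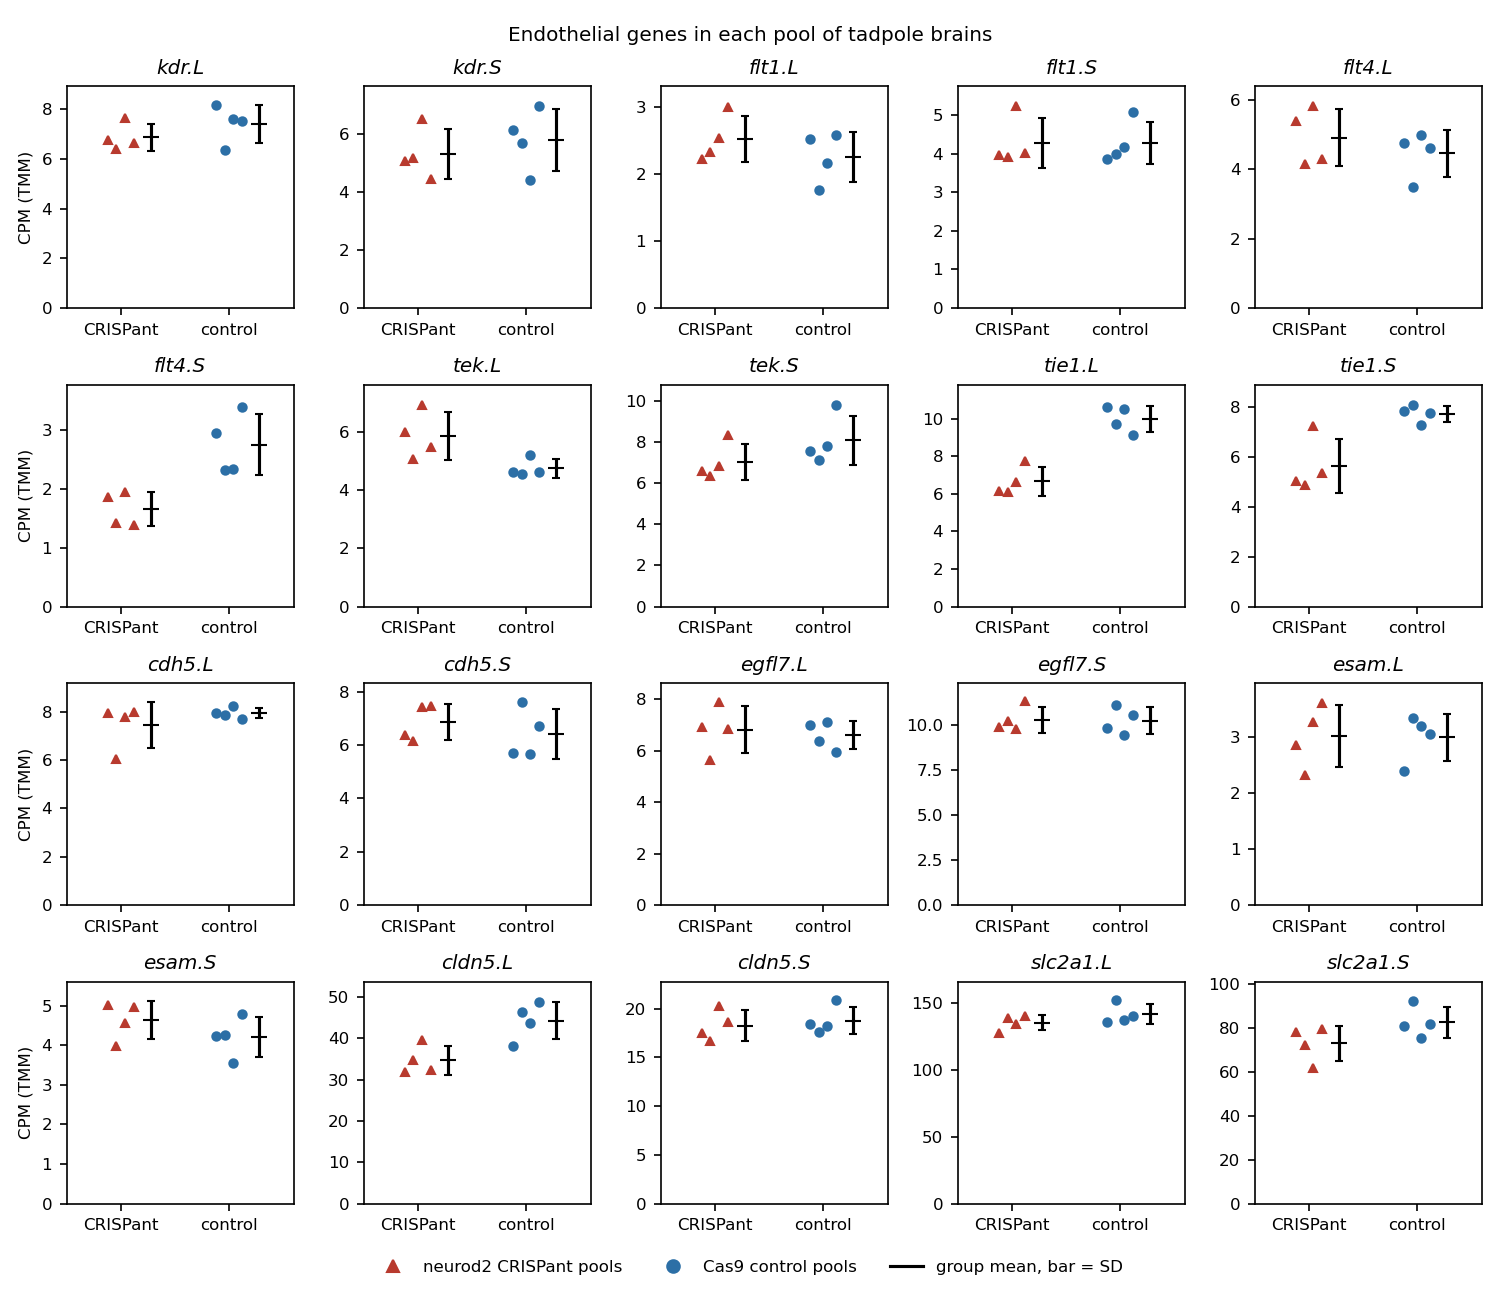
Each panel plots 1 row of the 10 endothelial genes, with CPM (TMM normalised, from 0) on the vertical axis and the CRISPant and control groups on the horizontal axis. Triangles are CRISPant pools in the order 3, 4, 7 and 9, circles are control pools in the order 1, 2, 4 and 5, and black bars are the mean and SD of 4 pools. The groups are apart in tie1.L, tie1.S and flt4.S and overlap in the other 17 panels.

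The clearest fall was in tie1, an orphan receptor kinase that modulates angiopoietin signalling through tek. tie1.L (chromosome 4L, 83163206 to 83192818, RefSeq v10.1 assembly) was at 6.14, 6.12, 6.63 and 7.78 CPM in CRISPant pools 3, 4, 7 and 9, against 10.6, 9.74, 10.5 and 9.12 CPM in control pools 1, 2, 4 and 5. The groups did not overlap, and the closest values were those of CRISPant pool 9 and control pool 5. Of the 20 rows, 3 had CRISPant pools entirely below control pools, while over all genes tested 18.5% did and 37.8% had groups that did not overlap in either direction. By the fit tie1.L fell by 33.4%, a log2 fold change of -0.59 (± 0.11 SE, edgeR adjusted p = 2.5e-04).

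tie1.S was at 5.03, 4.89, 7.23 and 5.37 CPM in CRISPant pools 3, 4, 7 and 9, against 7.82, 8.07, 7.29 and 7.76 CPM in the control pools. CRISPant pool 7 stood just under control pool 4 and well above the other CRISPant pools, and the groups still did not overlap. By the fit it fell by 27.1%, a log2 fold change of -0.46 (± 0.13 SE, edgeR adjusted p = 0.0073). With each pool left out in turn, the log2 fold change ran from -0.67 to -0.54 for tie1.L and from -0.60 to -0.39 for tie1.S, and both passed the test each time. With the reads of both copies summed, tie1 fell by 30.7% (log2 fold change -0.53, ± 0.09 SE, edgeR adjusted p = 1.2e-04).

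tek, the receptor that binds angiopoietins directly, did not pass the test in either copy. tek.L was at 5.98, 5.05, 6.93 and 5.46 CPM in the CRISPant pools, against 4.61, 4.54, 5.22 and 4.61 CPM in the control pools. CRISPant pool 4 lay under control pool 4, so that the groups overlapped, while the other CRISPant pools were above every control pool. The log2 fold change was 0.30 (± 0.13 SE, edgeR adjusted p = 0.070), and it passed without CRISPant pool 4 (log2 fold change 0.37, edgeR adjusted p = 0.036). tek.S leaned the other way, with 6.61, 6.35, 6.85 and 8.33 CPM in the CRISPant pools, against 7.59, 7.14, 7.83 and 9.82 CPM in the control pools. Its log2 fold change was -0.20 (95% interval -0.46 to 0.06, edgeR adjusted p = 0.21). The summed counts of tek had a log2 fold change of 0.0047, with a 95% interval of -0.20 to 0.20.

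Of the 6 rows of kdr, flt1 and flt4, flt4.S alone passed the test. flt4 encodes the receptor for VEGF-C and is known from lymphatic and sprouting vessels. flt4.S was at 1.85, 1.42, 1.94 and 1.39 CPM in CRISPant pools 3, 4, 7 and 9, against 2.94, 2.32, 2.34 and 3.38 CPM in control pools 1, 2, 4 and 5. These values rest on 35, 36, 45 and 30 reads in the CRISPant pools, against 76, 50, 52 and 72 reads in the control pools, and the groups did not overlap. By the fit it fell by 40.1%, a log2 fold change of -0.74 (± 0.20 SE, edgeR adjusted p = 0.0051), and it passed without any 1 pool (log2 fold changes from -0.83 to -0.63).

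flt4.L was at 5.40, 4.14, 5.81 and 4.31 CPM in the CRISPant pools, against 4.76, 3.48, 4.99 and 4.61 CPM in the control pools. The groups overlapped, and its log2 fold change was 0.13 (95% interval -0.18 to 0.45). Summed over both copies, flt4 had a log2 fold change of -0.14 and did not pass (edgeR adjusted p = 0.43).

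kdr, the main signalling receptor for VEGF-A in endothelium, overlapped between the groups in both copies. kdr.L was at 6.77, 6.39, 7.66 and 6.62 CPM in the CRISPant pools, against 8.17, 6.35, 7.60 and 7.52 CPM in the control pools, and control pool 2 was under all CRISPant pools. Its log2 fold change was -0.11 (95% interval -0.36 to 0.13, edgeR adjusted p = 0.46). kdr.S was at 5.08, 5.17, 6.50 and 4.44 CPM in the CRISPant pools and 6.12, 5.70, 4.41 and 6.96 CPM in the control pools, with a log2 fold change of -0.13. flt1, whose product binds VEGF-A and limits its access to kdr, had a log2 fold change of 0.16 for flt1.L (95% interval -0.22 to 0.54) and 0.0074 for flt1.S (-0.30 to 0.32). flt1.L lay between 2.22 and 3.01 CPM in the CRISPant pools and between 1.76 and 2.59 CPM in the control pools. flt1.S lay between 3.91 and 5.25 CPM in the CRISPant pools and between 3.87 and 5.08 CPM in the control pools.

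Of the junction genes, cldn5.L passed the test. cldn5 encodes the claudin that dominates the tight junctions of the blood brain barrier. cldn5.L (chromosome 1L, 167557060 to 167559892, RefSeq v10.1 assembly) was at 32.0, 34.9, 39.6 and 32.3 CPM in CRISPant pools 3, 4, 7 and 9, against 38.2, 46.4, 43.7 and 48.8 CPM in control pools 1, 2, 4 and 5. CRISPant pool 7 was above control pool 1, and no other pair of pools overlapped. By the fit it fell by 21.5%, a log2 fold change of -0.35 (± 0.08 SE, edgeR adjusted p = 0.0016), with values from -0.42 to -0.30 when each pool was left out. cldn5.S (chromosome 1S, 143103408 to 143104467) was at 17.5, 16.7, 20.3 and 18.6 CPM in the CRISPant pools, against 18.4, 17.6, 18.3 and 20.9 CPM in the control pools. Its log2 fold change was -0.04 (95% interval -0.22 to 0.14), and the groups overlapped throughout. The summed counts fell by 16.0% (log2 fold change -0.25, edgeR adjusted p = 0.0074).

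cdh5 encodes VE-cadherin, the adhesion molecule of endothelial adherens junctions, and is among the most specific markers of the cell type. cdh5.L was at 7.93, 6.04, 7.79 and 8.01 CPM in the CRISPant pools, against 7.94, 7.88, 8.23 and 7.71 CPM in the control pools, so that only CRISPant pool 4 stood apart. cdh5.S was at 6.40, 6.16, 7.45 and 7.45 CPM in the CRISPant pools and 5.69, 7.60, 5.67 and 6.72 CPM in the control pools. The copies had log2 fold changes of -0.10 and 0.10, and their summed counts had -0.0077 with a 95% interval of -0.20 to 0.18.

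egfl7, which encodes a protein secreted by endothelial cells, and esam, an adhesion molecule of endothelial tight junctions, also overlapped between the groups. egfl7.L was between 5.64 and 7.88 CPM in the CRISPant pools and between 5.97 and 7.11 CPM in the control pools, and egfl7.S was between 9.77 and 11.3 CPM in the CRISPant pools and between 9.45 and 11.1 CPM in the control pools. Their log2 fold changes were 0.04 and 0.0081. The summed counts of egfl7 gave 0.02, with a 95% interval of -0.14 to 0.18. esam.L was between 2.33 and 3.61 CPM in the CRISPant pools and between 2.40 and 3.34 CPM in the control pools, with a log2 fold change of 0.01. esam.S was between 3.99 and 5.03 CPM in the CRISPant pools and between 3.55 and 4.80 CPM in the control pools, with 0.13.

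slc2a1 encodes the glucose transporter of the blood brain barrier. In mammals it is also expressed in red blood cells and glia, so its level in whole brain need not come from vessels alone. slc2a1.L was at 127, 139, 134 and 140 CPM in the CRISPant pools, against 136, 152, 137 and 140 CPM in the control pools. Its log2 fold change was -0.06, with the narrowest 95% interval of the rows, from -0.18 to 0.05. slc2a1.S was at 78.4, 72.4, 62.0 and 79.4 CPM in the CRISPant pools, against 81.0, 92.1, 75.2 and 81.8 CPM in the control pools. Its log2 fold change of -0.18 did not pass (edgeR adjusted p = 0.069). It passed without CRISPant pool 9 (log2 fold change -0.22, edgeR adjusted p = 0.038) and without control pool 4 (-0.22, edgeR adjusted p = 0.030).

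**Figure D2:**
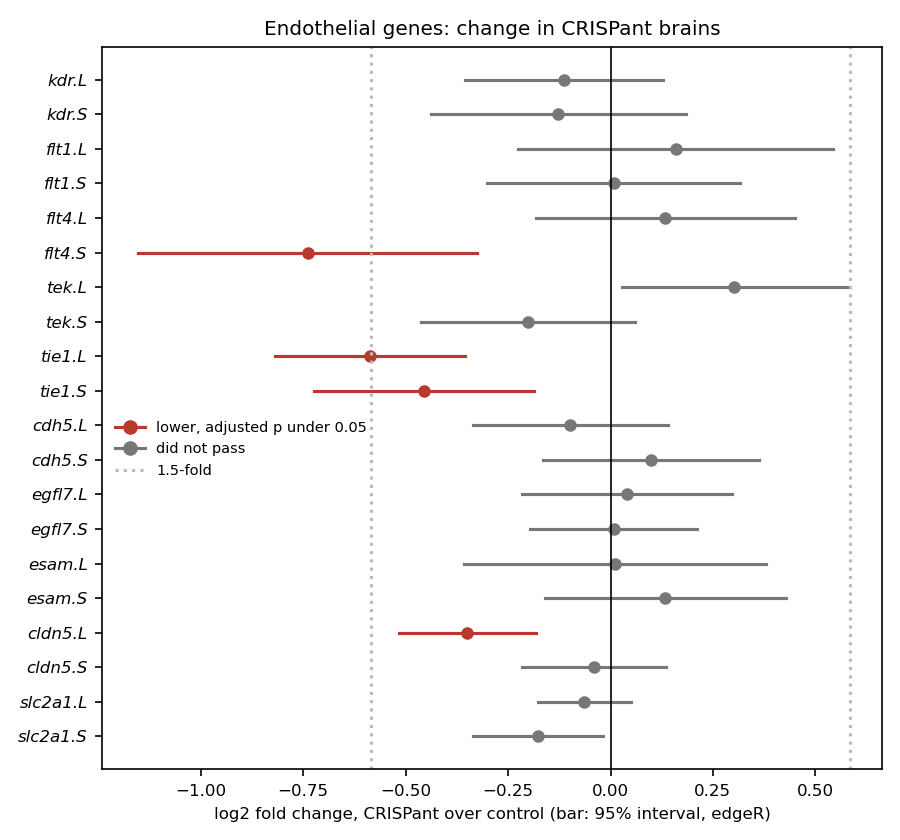
Log2 fold changes of the 20 endothelial rows, CRISPant over control, are plotted as points on the horizontal axis with their 95% intervals from edgeR as bars, 1 row per line. The 4 rows that passed the test are drawn in red at -0.74 for flt4.S, -0.59 for tie1.L, -0.46 for tie1.S and -0.35 for cldn5.L, and the 16 others are grey, with intervals between the dotted lines at a 1.5-fold change.

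As the copies of flt4 and cldn5 differed in outcome, the balance between homeologues was tested as the log2 ratio of L to S in each pool, with limma over 7427 pairs of genes. Of the 10 endothelial pairs, 2 changed, against 23.6% of all pairs. For flt4 the log2 ratio was 1.499, 1.487, 1.54 and 1.57 in CRISPant pools 3, 4, 7 and 9, against 0.68, 0.57, 1.07 and 0.44 in control pools 1, 2, 4 and 5. The CRISPant pools lay close together and above every control pool. The difference was 0.84 (± 0.13 SE, limma adjusted p = 0.0032), and it passed without any 1 pool (0.76 to 0.97). For cldn5 the log2 ratio was 0.86, 1.06, 0.96 and 0.79 in the CRISPant pools, against 1.05, 1.39, 1.26 and 1.22 in the control pools, with CRISPant pool 4 just above control pool 1.

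The difference for cldn5 was -0.31 (± 0.09 SE, limma adjusted p = 0.042). It did not pass without CRISPant pool 3 (-0.29, limma adjusted p = 0.096), CRISPant pool 7 (-0.32, 0.070), CRISPant pool 9 (-0.27, 0.10), control pool 2 (-0.26, 0.097), control pool 4 (-0.30, 0.087) or control pool 5 (-0.31, 0.080). For tek the log2 ratio was -0.14, -0.33, 0.02 and -0.60 in the CRISPant pools, against -0.71, -0.64, -0.58 and -1.08 in the control pools, a difference of 0.49 (95% interval 0.13 to 0.84, limma adjusted p = 0.053). It passed without CRISPant pool 9 (0.60, limma adjusted p = 0.029). For tie1, where both copies fell, the difference of the ratio was -0.11 (95% interval -0.43 to 0.20, limma adjusted p = 0.59). The other 6 pairs had differences between -0.20 for cdh5 and 0.16 for flt1 and did not pass. How the counting treated reads that match both copies is not given in the sources used here, and its part in these ratios was not tested.

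**Figure D3:**
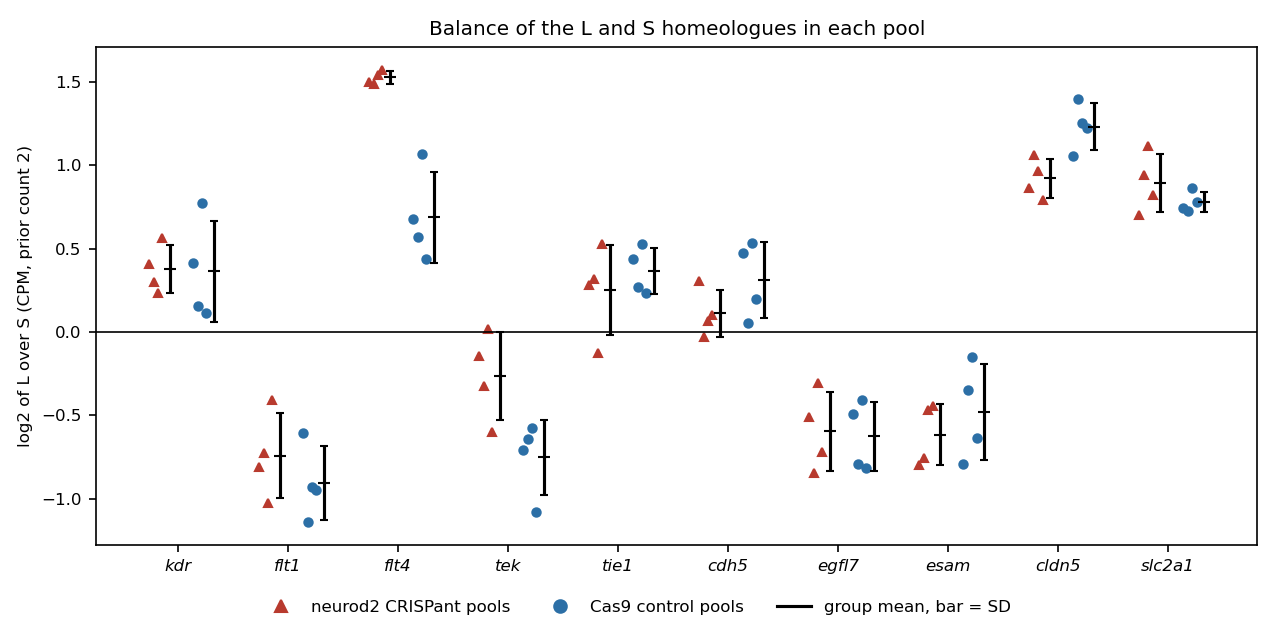
The log2 ratio of the L to the S homeologue (CPM with a prior count of 2) is plotted on the vertical axis for each of the 10 endothelial genes on the horizontal axis, with triangles for CRISPant pools, circles for control pools and black bars for the mean and SD of 4 pools. For flt4 the 4 CRISPant pools lie between 1.49 and 1.57, above the control pools between 0.44 and 1.07, and the groups overlap for the other 9 genes.

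The endothelial rows also varied among pools of the same group. CRISPant pool 4 was the lowest CRISPant pool in 13 of the 20 rows and the highest in 0, while CRISPant pools 7 and 9 were the highest in 10 and 9 rows. Control pools were more evenly ordered, with control pool 5 the highest in 8 rows and control pool 2 the lowest in 7. After the group mean of each row was taken off, the mean of the 20 rows was -0.14 on the log2 scale in CRISPant pool 4 and 0.12 in CRISPant pool 7. Across the 8 pools, 134 of the 190 pairs of rows had a correlation of these deviations above 0 (median Pearson's r = 0.25), and so did 8 of the 10 pairs of homeologues. cldn5.S had the highest median correlation with the other rows (0.53) and slc2a1.S the lowest (-0.29). All rows share the same 8 libraries, so these values are only descriptive.

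Summed over the 20 rows, the level was 343, 343, 354 and 364 CPM in CRISPant pools 3, 4, 7 and 9, against 370, 402, 368 and 392 CPM in control pools 1, 2, 4 and 5, without overlap. Without cldn5.L the groups overlapped, with 308 to 331 CPM in the CRISPant pools and 324 to 356 CPM in the control pools. Reads of slc2a1 made up most of this sum. Without slc2a1 the sum was 138, 132, 158 and 144 CPM in the CRISPant pools, against 153, 158, 156 and 170 CPM in the control pools, and CRISPant pool 7 was within the control range. Without cldn5 as well, the sum ran from 80.2 to 98.1 CPM in the CRISPant pools and from 93.7 to 100.3 CPM in the control pools.

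Ligands and co-receptors of these kinases came next. Of 17 tested rows for VEGFs, angiopoietins, neuropilins and partner proteins, 3 were higher, 2 were lower and 12 did not pass, with a median log2 fold change of -0.0029. The share called was 29.4%, below the 42.4% of all genes tested. angpt1 encodes the ligand that activates tek. angpt1.S was at 7.35, 6.83, 8.40 and 6.94 CPM in CRISPant pools 3, 4, 7 and 9, against 5.50, 4.17, 5.31 and 4.94 CPM in control pools 1, 2, 4 and 5. Every CRISPant pool was above every control pool, as in 19.4% of all genes tested. angpt1.S rose by 0.56 in log2 (± 0.13 SE, edgeR adjusted p = 0.0011) and was the only one of the 5 changed rows that passed without any 1 pool.

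angpt1.L averaged 3.06 ± 0.40 CPM in CRISPant pools and 3.20 ± 0.52 CPM in control pools (SD, n = 4 pools each), a change of -0.06 in log2. The L to S balance of angpt1 shifted (-0.62, ± 0.16 SE, limma adjusted p = 0.024), where 23.6% of all pairs changed. angpt2, which encodes an angiopoietin that can oppose angpt1 at tek, was under 1 CPM on average in both copies and both groups. Its log2 fold changes were 0.43 for angpt2.L (edgeR adjusted p = 0.32) and -0.25 for angpt2.S (edgeR adjusted p = 0.57). ptprb, a phosphatase that acts on tek, had 0.07 for ptprb.L and 0.02 for ptprb.S and did not pass.

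vegfa encodes the main endothelial growth factor. vegfa.L was at 46.3, 40.02, 44.0 and 47.8 CPM in the CRISPant pools, against 51.6, 49.7, 50.4 and 48.6 CPM in the control pools. The groups did not overlap, but the nearest pools differed by less than 1 CPM. The log2 fold change was -0.17 (± 0.06 SE, edgeR adjusted p = 0.032), and it did not pass without CRISPant pool 4 (-0.12, edgeR adjusted p = 0.12), CRISPant pool 7 (-0.17, 0.056), control pool 1 (-0.16, 0.084), control pool 2 (-0.18, 0.051) or control pool 4 (-0.17, 0.054). vegfa.S averaged 5.04 ± 1.03 CPM in CRISPant pools and 6.07 ± 0.27 CPM in control pools (SD, n = 4 pools each), and its change of -0.27 in log2 did not pass (edgeR adjusted p = 0.12). Of the settings with 1 pool left out, it passed without CRISPant pool 9 (-0.41, edgeR adjusted p = 0.029).

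The co-receptors nrp1.S and nrp2.S rose with log2 fold changes of 0.18 and 0.17 (edgeR adjusted p = 0.036 and 0.030). nrp1.S did not pass without CRISPant pools 4 or 9 or control pools 4 or 5 (adjusted p from 0.054 to 0.14 from edgeR), nor nrp2.S without CRISPant pools 3 or 4 or control pools 1 or 4 (from 0.059 to 0.11). svep1.L fell with -0.31 (edgeR adjusted p = 0.015), and did not pass without CRISPant pool 9 (-0.25, edgeR adjusted p = 0.059) or control pool 5 (-0.23, edgeR adjusted p = 0.071). vegfc, which encodes the ligand of flt4, had 0.09 for vegfc.L and -0.29 for vegfc.S, vegfb.L had 0.05, and the semaphorin receptor gene plxnd1 had -0.09 for plxnd1.L and -0.10 for plxnd1.S, and none of them passed. nrp2.L had -0.0029 and did not pass, and neither did the L to S balance of nrp2 (-0.17, limma adjusted p = 0.11).

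Other genes of endothelial cells were read from a list of 48, of which 35 had at least 1 tested row. Of its 61 tested rows, 19 were lower (31.1%, against 20.8% of all genes tested), 8 were higher (13.1%, against 21.7%) and 34 did not pass, and their median change was -0.21 in log2. Among the 27 changed rows, 17 passed without any 1 pool, 14 of them lower and 3 higher. The count of higher rows was 5 without CRISPant pool 7 and 4 without control pool 1. The list is of genes known from endothelium in other vertebrates, and many of them are also expressed elsewhere in the brain. Its highest rows in control pools were those of s1pr1, arhgef15, robo4 and tal1, which weigh most in its summed level. Their control means ran from 37.5 CPM for robo4.L to 107 CPM for s1pr1.L, against 7.94 CPM for cdh5.L.

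The SOXF transcription factors direct endothelial and arterial identity, and both copies of sox17a, sox7 and sox18 fell, although 3 of the 6 calls were lost with a pool left out. sox17a.L was at 1.11, 1.11, 1.64 and 1.57 CPM in CRISPant pools 3, 4, 7 and 9, against 3.06, 2.64, 2.48 and 3.06 CPM in control pools 1, 2, 4 and 5, without overlap. Its log2 fold change was -1.05 (± 0.20 SE, edgeR adjusted p = 2.5e-04). sox7.L averaged 3.10 ± 0.31 CPM in CRISPant pools and 4.51 ± 0.18 CPM in control pools (SD, n = 4 pools each), with -0.53. sox18.S averaged 2.09 ± 0.26 CPM in CRISPant pools and 3.10 ± 0.39 CPM in control pools, with -0.56, and all 3 of these rows passed without any 1 pool. Their other copies had -0.63 for sox17a.S, -0.47 for sox7.S and -0.39 for sox18.L. sox17a.S did not pass without control pool 2 (-0.51, edgeR adjusted p = 0.063). sox7.S did not pass without CRISPant pools 4 or 9 or control pools 1 or 4 (-0.43 to -0.37, edgeR adjusted p from 0.062 to 0.092). sox18.L did not pass without CRISPant pools 3 or 4 or control pools 4 or 5 (-0.39 to -0.28, edgeR adjusted p from 0.051 to 0.12).

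aplnr, which encodes the apelin receptor, fell in both copies. aplnr.L was at 11, 10.8, 13.5 and 13.7 CPM in the CRISPant pools, against 19.5, 17.3, 15.8 and 23.0 CPM in the control pools, with a log2 fold change of -0.63 (± 0.11 SE, edgeR adjusted p = 2.0e-04). aplnr.S had -0.55, and neither copy overlapped between the groups. dll4.L, a Notch ligand of tip cells and arteries, was at 6.56, 9.39, 7.75 and 7.27 CPM in the CRISPant pools, against 11.9, 10.4, 12.5 and 11 CPM in the control pools, with -0.56 (± 0.11 SE, edgeR adjusted p = 5.1e-04). dll4.S had -0.31 and did not pass (edgeR adjusted p = 0.082). The Notch receptor gene notch4.S had -0.33 and gja4.L, a connexin of arterial endothelium, had -0.42, while gja4.S did not pass. The other arterial connexin of the list went the opposite way, as gja5.L was higher by 0.49 (edgeR adjusted p = 0.016) but did not pass without control pool 1 (0.46, edgeR adjusted p = 0.051), and gja5.S had 0.08 and did not pass. gpr182, an endothelial receptor that scavenges chemokines, fell in both copies, with -0.73 for gpr182.L and -0.69 for gpr182.S, as did tal1, with -0.46 for tal1.L and -0.45 for tal1.S. In mouse, tal1 is required for blood and endothelial progenitors and for midbrain GABAergic neurons.

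Rows that were higher included robo4.L, a receptor of the Roundabout family, at 57.1, 58.2, 56.6 and 57.8 CPM in the CRISPant pools, against 41.5, 36.1, 39.5 and 33.1 CPM in the control pools. The groups were far apart for this row, and robo4.L was higher by 0.61 in log2 (± 0.07 SE, edgeR adjusted p = 3.4e-07), while robo4.S did not pass. The L to S balance of robo4 shifted (0.56, ± 0.09 SE, limma adjusted p = 0.0033), where 23.6% of all pairs changed. thbd.S, which encodes the anticoagulant receptor thrombomodulin, was at 2.27, 2.17, 4.39 and 3.24 CPM in the CRISPant pools, against 1.24, 1.67, 1.62 and 1.22 CPM in the control pools, with a log2 fold change of 1.075 (edgeR adjusted p = 8.4e-04). acvrl1.S, which encodes a receptor for BMPs in endothelium, averaged 1.23 CPM in CRISPant pools and 0.574 CPM in control pools, with 1.09. acvrl1.L had 0.28 and did not pass, and neither did the L to S balance of acvrl1 (-0.68, limma adjusted p = 0.21).

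The platelet and endothelial adhesion gene pecam1.S and vwf.L, which encodes von Willebrand factor, were higher as well. vwf.L was at 5.18, 5.41, 7.66 and 9.77 CPM in the CRISPant pools, against 3.72, 3.94, 4.72 and 5.88 CPM in the control pools, with overlap and a log2 fold change of 0.62 (edgeR adjusted p = 0.023). It did not pass without CRISPant pools 7 (0.58, edgeR adjusted p = 0.063) or 9 (0.42, 0.064) or control pools 1 (0.53, 0.069) or 2 (0.56, 0.068). pecam1.L had 0.0065 and did not pass, and pecam1.S had 0.62 (edgeR adjusted p = 0.022) and did not pass without CRISPant pool 7 (0.52, edgeR adjusted p = 0.068) or control pools 1 (0.42, 0.087) or 4 (0.59, 0.053).

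**Figure D4:**
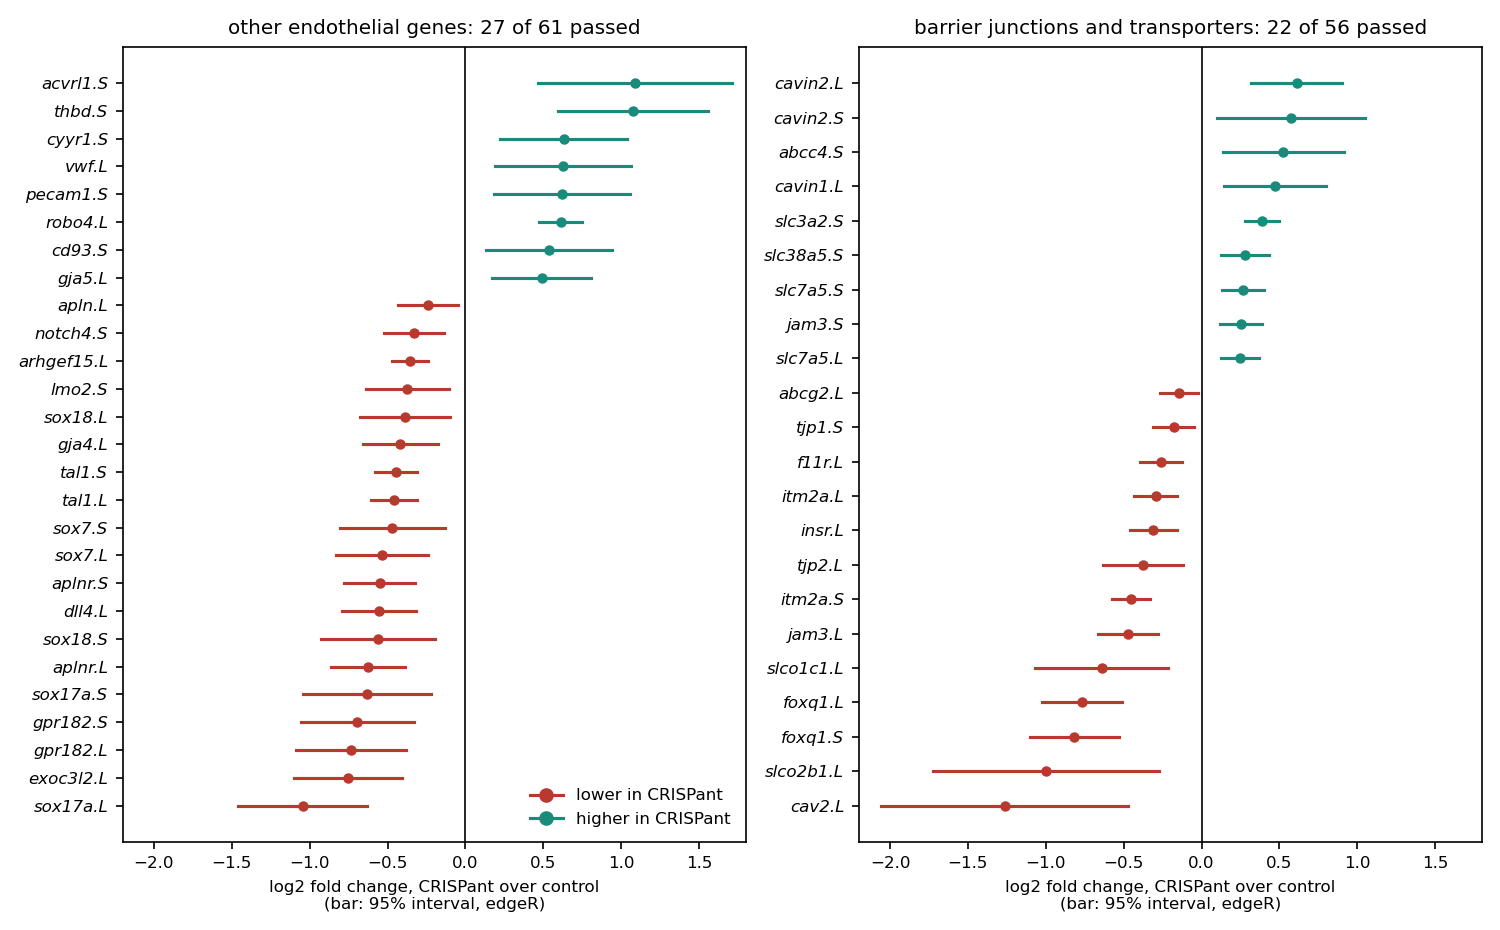
Points are log2 fold changes, CRISPant over control, of the rows that passed the test in 2 further lists, with 95% intervals from edgeR as bars. The left panel holds other endothelial genes, with 8 rows higher (green) and 19 lower (red) of 61 tested, and the right panel holds genes of barrier junctions and transport, with 9 higher and 13 lower of 56 tested.

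Genes that build the blood brain barrier or carry solutes across it were called about as often as genes in general. Of 56 tested rows, 9 were higher (16.1%, against 21.7% of all genes tested), 13 were lower (23.2%, against 20.8%) and 34 did not pass, with a median log2 fold change of -0.03. foxq1, a forkhead factor expressed in brain endothelium of mouse, fell in both copies. foxq1.L was at 6.77, 6.04, 7.28 and 5.51 CPM in CRISPant pools 3, 4, 7 and 9, against 12.1, 11.7, 8.64 and 11.2 CPM in control pools 1, 2, 4 and 5, with a log2 fold change of -0.77 (± 0.12 SE, edgeR adjusted p = 4.1e-05). foxq1.S had -0.82 (± 0.14 SE), and the groups did not overlap in either copy. itm2a, a membrane protein gene, fell with -0.45 for itm2a.S and -0.30 for itm2a.L.

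Among the junction molecules, jam3 changed in opposite directions in its copies. jam3.L was at 27.6, 20.3, 24.2 and 22.4 CPM in the CRISPant pools, against 32.2, 29.2, 37.4 and 31.8 CPM in the control pools, with a log2 fold change of -0.47 (edgeR adjusted p = 3.5e-04). jam3.S was at 34.1, 37.7, 37.1 and 36.9 CPM in the CRISPant pools, against 32.2, 29.8, 28.8 and 31.7 CPM in the control pools, with 0.25 (edgeR adjusted p = 0.0038). Neither copy overlapped between the groups, and the L to S balance shifted (-0.72, ± 0.14 SE, limma adjusted p = 0.0093), where 23.6% of all pairs changed. The summed counts had -0.08 and did not pass (edgeR adjusted p = 0.26). The part of reads that match both copies in this balance was not tested. The junctional adhesion gene f11r.L fell with -0.26, while f11r.S had -0.18 and did not pass (edgeR adjusted p = 0.074). slc3a2 and slc7a5 encode the subunits of the large neutral amino acid carrier, and slc3a2.S, slc7a5.L and slc7a5.S rose with 0.39, 0.25 and 0.27, while slc3a2.L had -0.0012 and did not pass. The L to S balance of slc3a2 shifted as well (-0.38, ± 0.08 SE, limma adjusted p = 0.013). slc38a5.S, a glutamine carrier, rose with 0.28, while slc38a5.L had 0.31 and did not pass (edgeR adjusted p = 0.076). The drug efflux pump gene abcb1.L had -0.08 and the lipid transporter gene mfsd2a.L had 0.15, and neither passed.

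Wnt signals from neural cells induce the barrier in brain endothelium. Of 23 tested rows for Wnt ligands, receptors and targets in this role, 7 were lower (30.4%, against 20.8% of all genes tested). None was higher (0%, against 21.7%), and 16 did not pass, with a median log2 fold change of -0.06. The share called in either direction was 30.4%, below the 42.4% of all genes tested. The Wnt target gene axin2 fell in both copies, with -0.46 for axin2.S and -0.39 for axin2.L, as did the receptor gene fzd1, with -0.42 for fzd1.L and -0.30 for fzd1.S. Of the beta-catenin copies, ctnnb1.S fell with -0.29 and ctnnb1.L had 0.02 and did not pass. The same list held lef1.S at 0.18, lef1.L at 0.07, apcdd1.S at 0.03 and apcdd1.L at -0.02, and none of them passed. Nor did adgra2.S (0.36), adgra2.L (0.20) or fzd4.S (-0.29). The ligand copy wnt7b.L fell with -0.29 (edgeR adjusted p = 0.044), while wnt7b.S had -0.07 and did not pass. lrp5.L fell with -0.25 (edgeR adjusted p = 0.0115). Of the 7 calls, 5 held without any 1 pool, those of axin2, fzd1 and ctnnb1.S. No row was found for wnt7a or reck, and ndp had too few reads to be tested. Genes of this list act in neural cells as well.

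Of 19 tested rows for oxygen sensing, 2 were higher (10.5%, against 21.7% of all genes tested) and 5 were lower (26.3%, against 20.8%). Both copies of the hypoxia factor gene rose, with 0.32 for hif1a.L and 0.17 for hif1a.S, though hif1a.S did not pass without control pool 4 (0.15, edgeR adjusted p = 0.058), while epas1.L, its relative that is enriched in endothelium, fell with -0.66. The prolyl hydroxylase genes egln1.S and egln3.L, whose products mark both factors for destruction, fell with -0.30 and -0.47. bnip3, a target of these factors, fell in both copies, with -0.44 for bnip3.S and -0.36 for bnip3.L. epas1.S had -0.21 and egln3.S had -0.14, and neither passed. Nor did egln2.L (-0.13), egln2.S (0.14), adm.S (-0.35) or ankrd37.L (0.04) of the same list. Among 13 rows for partners of cadherins at adherens junctions, 7 were higher (53.8%, against 21.7% of all genes tested) and 1 was lower (7.69%, against 20.8%), with vcl.S at 0.46, ctnna1.L at 0.42 and the neural cadherin gene cdh2.S at 0.27. These partners are found in nearly all tissues, and 6 of their 8 calls held without any 1 pool. The 1 lower row was ctnnb1.S (-0.29), which was also counted among the lower rows of the Wnt list. The summed level of the partners overlapped, with 1674 to 1739 CPM in CRISPant pools and 1683 to 1841 CPM in control pools. Without ctnnb1.S the sum was 1089 to 1147 CPM in CRISPant pools and 990 to 1088 CPM in control pools, without overlap.

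Markers of other cells around vessels were read from lists of the same kind. For pericytes and smooth muscle, 3 of 26 rows were higher and 4 were lower (26.9% called, against 42.4% of all genes tested), and the summed level was 382 to 391.7 CPM in CRISPant pools and 406 to 422 CPM in control pools. This difference rested on 1 row, abcc9.L, which encodes a channel subunit known from pericytes. Without it the sum was 346 to 361 CPM in CRISPant pools and 342 to 358 CPM in control pools. The control mean of abcc9.L was 63.7 CPM, against 6.33 CPM for pdgfrb.S, 0.631 CPM for kcnj8.L and 1.40 CPM for kcnj8.S. zic1.L and zic1.S, with control means of 83.1 and 82.9 CPM, weighed most in the sum. Which cells the reads of this list came from was not tested. abcc9.L fell with -0.92 and cspg4.L with -1.20, the pericyte markers pdgfrb.S, rgs5.L and rgs5.S had 0.09, -0.08 and -0.07 and did not pass, while the smooth muscle actin copies acta2.L and acta2.S rose with 1.29 and 1.99. cspg4.L averaged 1.42 CPM in CRISPant pools and 3.25 CPM in control pools, and acta2.L averaged 4.33 and 1.78 CPM. acta2.S was at 4.13, 3.47, 5.81 and 9.77 CPM in CRISPant pools 3, 4, 7 and 9, against a control mean of 1.46 CPM. Other muscle genes of the list were mixed, as tagln.L rose with 1.39 (means of 0.904 CPM in CRISPant and 0.338 CPM in control pools) and des.1.L fell with -0.42. Both of these calls were lost with at least 1 pool left out. myh11.L (0.12), myh11.S (0.14), mylk.L (0.03), mylk.S (-0.03) and cnn1.L (0.17) did not pass. For fibroblasts and meninges, 11 of 23 rows were higher (47.8%, against 21.7% of all genes tested) and 4 were lower (17.4%, against 20.8%), with a summed level of 258 to 300.4 CPM in CRISPant pools and 192 to 212 CPM in control pools. The higher rows included the collagen rows col1a1.L (1.38), col1a1.S (0.84) and col3a1.S (0.83). The 4 lower rows were lum.L (-0.75), pdgfra.L (-0.47), aldh1a2.L (-0.39) and col1a2.S (-0.35). Neither copy of foxc1, twist1 or dcn passed. For macrophages and microglia, 6 of 15 rows were lower (40%, against 20.8% of all genes tested), 0 were higher (0%, against 21.7%) and 9 did not pass. The share called in either direction was 40%, against 42.4% of all genes tested. Their summed level was 13.1 to 19.5 CPM in CRISPant pools and 23.9 to 31.4 CPM in control pools. With each pool left out in turn, 11 of the 15 calls for fibroblasts and meninges held, and 4 of the 6 for macrophages and microglia. The fibroblast and macrophage sums stayed apart between the groups without the row that differed most in each, col1a1.S and siglec1.L. Their part in the results for the endothelial genes was not tested.

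Red blood cells fill the vessels of a dissected brain, and their marker sum overlapped between the groups. It was 1118, 807, 2261 and 1935 CPM in CRISPant pools 3, 4, 7 and 9, against 1115, 1061, 1703 and 1312 CPM in control pools 1, 2, 4 and 5. CRISPant pools 7 and 9 had the highest sums and CRISPant pool 4 the lowest, and CRISPant pool 4 was also the lowest CRISPant pool in 13 of the 20 endothelial rows. Control pool 4 had the highest sum of the controls, and was the lowest control pool in 6 endothelial rows and the highest in 4. A link between the red blood cell sum and the endothelial rows was not tested. Of 18 tested rows of the red blood cell list, 2 were higher (11.1%, against 21.7% of all genes tested) and 16 did not pass. Both calls were lost with at least 1 pool left out. For lymphatic endothelium, 2 of 10 rows were lower, 1 of them flt4.S, and for thrombocytes the 5 tested rows did not pass, where 42.4% of all genes tested were called. For the choroid plexus and ependyma 4 of 15 rows were lower, for neurons 1 of 16 was higher and 7 were lower, for skeletal muscle 2 of 6 were lower and for cartilage 1 of 9 was higher and 3 were lower. The shares called lower were 20% for lymphatic endothelium, 26.7% for choroid plexus and ependyma, 43.8% for neurons, 33.3% for skeletal muscle and 33.3% for cartilage, against 20.8% of all genes tested. The shares called higher were 6.25% for neurons and 11.1% for cartilage, against 21.7% of all genes tested.

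**Figure D5:**
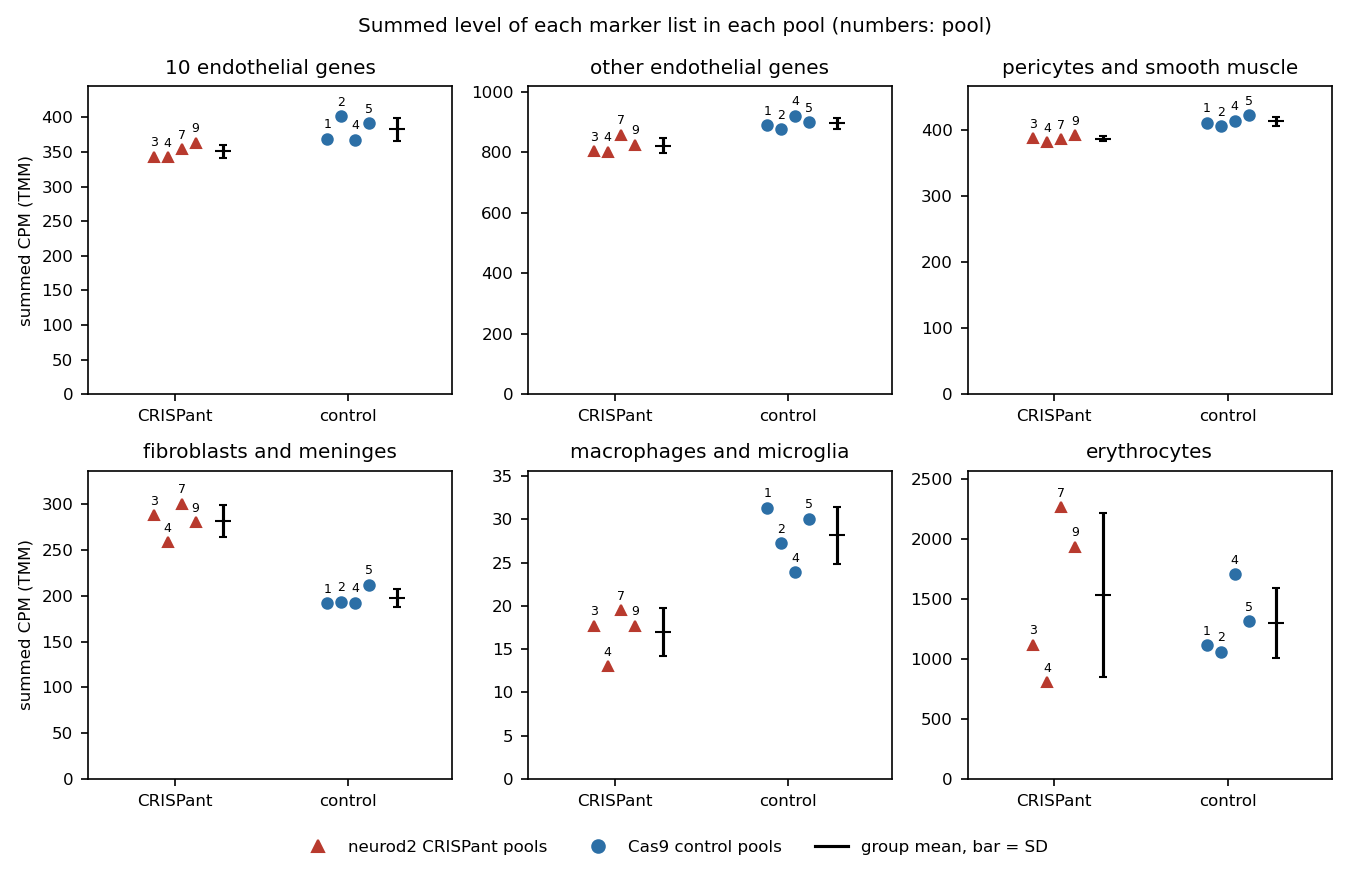
Summed CPM (TMM normalised, from 0) of 6 marker lists are plotted on the vertical axis for each pool, with triangles for CRISPant pools, circles for control pools, the pool number above each point and black bars for the mean and SD of 4 pools. The groups are apart for the 10 endothelial genes, other endothelial genes, pericytes and smooth muscle, fibroblasts and meninges, and macrophages and microglia, the first of these only with cldn5.L and the third only with abcc9.L included, and they overlap for erythrocytes, where CRISPant pools 7 and 9 are highest at 2261 and 1935 CPM.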

How the data were processed

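Total RNA from whole brains was sequenced in 8 pools. Libraries were TruSeq stranded mRNA. The authors aligned the single reads with DRAGEN (genome build XENLA_10.1) and deposited the read counts that FeatureCounts gave per gene, without normalisation. Strand and multi-mapping settings are not given in the sources used here. Each column was matched to a sample by its library name. Genes were filtered with filterByExpr (minimum count 10), normalised by TMM and tested with edgeR 4.0.16 in R 4.3.3 (quasi-likelihood F-test, robust, condition only), with Benjamini-Hochberg adjustment over 25171 genes. Standard errors came from the fold change and F. The scripts were tested on simulated data. Ratios of L to S were tested with limma 3.58.1 on log2 CPM (prior count 2). For genes outside the 10, such as angpt1, robo4, jam3 and slc3a2, these ratios were not checked with a pool left out. Homeologues were matched by symbol, and 16 of the 20 endothelial rows were found in the RefSeq v10.1 table that gave coordinates. All pools came from siblings, so p-values cover the spread among such pools. Alternatives were median-of-ratios size factors, DESeq2 1.42.0, no filter, a minimum CPM of 1 in 4 pools or more, edgeR without robust estimation, summed homeologues, a prior count of 0.5 and each pool left out. Summed levels without the row that differed most were added after seeing the data. The genes and lists were chosen with earlier results of these data known. The rule for named genes took all rows of the 10 genes and of their ligands, and of other lists up to 6 rows with the smallest p at a mean of at least 0.5 CPM. Not every row of the other lists under this rule is described with its values, as for arhgef15.L, ctnna1.S, lcp1.S, foxj1.L and tubb3.L. Named members of lists outside this rule (among them aplnr.S, dll4.L, sox7.L, sox18.S, gpr182, notch4.S, gja4.L, thbd.S, acvrl1.S, pecam1.S, vwf.L, jam3.S, slc7a5, slc38a5, f11r, abcb1.L, mfsd2a.L, robo4.S, sox17a.S, sox7.S, sox18.L, dll4.S, gja4.S, acvrl1.L, pecam1.L, slc3a2.L, ctnnb1.L, hif1a.S, gja5, epas1.S, egln3.S, pdgfrb.S, rgs5, lef1, apcdd1, adgra2, fzd4.S, wnt7b, myh11, mylk, cnn1.L, kcnj8, zic1, lum.L, pdgfra.L, aldh1a2.L, col1a2.S, foxc1, twist1, dcn, s1pr1, arhgef15.S) were chosen after their values were seen.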

Additional observations from a re-analysis of the deposited data

Results flagged for a closer look

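In 72 groups of 4 pools, 4 held a pool far from the other pools by Dixon's test, where chance alone flags about 1 in 20 groups. flt1.S was at 5.25 CPM in CRISPant pool 7 and between 3.91 and 4.03 CPM in the other CRISPant pools. cdh5.L was at 6.04 CPM in CRISPant pool 4 and between 7.79 and 8.01 CPM in the others. tek.L was at 5.22 CPM in control pool 4 and between 4.54 and 4.61 CPM in the other controls. The summed markers of fibroblasts and meninges were at 212 CPM in control pool 5 and between 192 and 194 CPM in the other controls.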

How the results depend on the processing

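tie1.L, tie1.S, cldn5.L and flt4.S were lower at an adjusted p under 0.05 in edgeR or DESeq2 under all 13 alternatives that keep the homeologues apart, with the highest adjusted p at 0.028 (tie1.S). With homeologues summed, 2 of the 10 genes were lower (tie1 and cldn5), and flt4 did not pass. Of all 17826 summed genes tested, 21.4% were lower and 43.6% were called in either direction, so this count was near the share of all genes. The count of lower rows was between 4 and 5 and that of higher rows between 0 and 1 (tek.L, without CRISPant pool 4) over the pools left out, and slc2a1.S passed without a filter on low counts (adjusted p = 0.039). The number of pairs with a changed L to S ratio was between 1 and 2 over the pools left out, and 3 with a CPM of at least 1 required of both copies, where tek passed as well (limma adjusted p = 0.0443). For the other endothelial genes it was 16 to 20 lower and 4 to 9 higher rows. Median-of-ratios size factors shifted the median of all genes by -0.0012 in log2. The labels give no pairing of CRISPant with control pools, so no paired analysis was run.

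Some values changed sign, and of these only jam3.S had passed the test before. With homeologues summed, the log2 fold change was 0.0047 for tek.S, -0.14 for flt4.L, -0.0077 for cdh5.S, 0.0557 for angpt2.S, -0.0150 for vegfc.L, 0.349 for angpt1.L, 0.0700 for nrp2.L, -0.174 for ctnnb1.L, 0.157 for slc3a2.L and -0.0775 for jam3.S, since each sum takes in the other copy. Of these sums, those of angpt1 (edgeR adjusted p = 0.0132), ctnnb1 (0.00612) and slc3a2 (0.0139) passed. Without a filter nrp2.L was at 0.00025 and slc3a2.L at 0.0018, and with DESeq2 slc3a2.L was at 0.00055.

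Over the pools left out it ran from -0.097 to 0.0106 for cldn5.S, from -0.0415 to 0.126 for egfl7.L, from -0.0393 to 0.0472 for egfl7.S, from -0.0873 to 0.125 for esam.L, from -0.108 to 0.0954 for flt1.S, from -0.454 to 0.115 for angpt2.S, from -0.0517 to 0.238 for vegfc.L, from -0.163 to 0.0226 for angpt1.L, from -0.0781 to 0.0947 for ptprb.S, from -0.116 to 0.263 for vegfb.L, from -0.0274 to 0.0168 for nrp2.L, from -0.125 to 0.0437 for abcb1.L, from -0.0121 to 0.0643 for ctnnb1.L, from -0.133 to 0.148 for pecam1.L, from -0.0447 to 0.0612 for slc3a2.L, from -0.0209 to 0.148 for gja5.S, from -0.467 to 0.0225 for egln3.S and from -0.264 to 0.00957 for rgs5.L. The difference in the log2 ratio of L to S ran from -0.0663 to 0.113 for egfl7, from -0.0689 to 0.152 for kdr and from -0.206 to 0.0107 for tie1. None of these passed the test with any pool left out.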

Other observations

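kdrl, annotated as a relative of kdr and not among the 10 genes, was looked at after its values were seen. kdrl.L was at 20.3, 18.1, 21.4 and 24.4 CPM in CRISPant pools 3, 4, 7 and 9, against 14.2, 13.9, 14.8 and 16.0 CPM in control pools 1, 2, 4 and 5. The groups did not overlap, and by the fit kdrl.L was higher by 0.51 in log2 (± 0.09 SE, edgeR adjusted p = 1.2e-04). In zebrafish, kdrl encodes a VEGF receptor of blood vessels. kdrl.S averaged 0.995 CPM in CRISPant pools and 0.649 CPM in control pools and did not pass the test (log2 fold change 0.63, edgeR adjusted p = 0.13), but passed without CRISPant pool 3 (0.84, edgeR adjusted p = 0.041), and ran from 0.34 to 0.84 over the pools left out.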
